A study of Mus musculus with 6 samples.

Results

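The CD3 chains and the first signalling steps behind the T-cell antigen receptor (TCR) were followed in CD4-CD8- double-negative (DN) cells of cultured fetal mouse thymus. The genes were chosen by name: Cd3e, Cd3d, Cd3g, Cd247, Lck, Zap70, Lat, Cd28, Cd5 and Cd2. Among probe sets annotated with exactly 1 gene symbol, the brightest on average stood for its gene. This gave values for 9 of the 10 genes, out of 12393 genes in all, and Lck is not analysed here. C57BL/6 thymus lobes from day 15 of gestation were cultured for 6 days, to a time that corresponds to day 21, with TCDD (2,3,7,8-tetrachlorodibenzo-p-dioxin) at 10 nM or with dioxane, the solvent. The groups were emigrants with TCDD (2 arrays), emigrants with dioxane (2), thymocytes with TCDD (1) and thymocytes with dioxane (1). Emigrants were DN cells flushed off the lobes with buffer, thymocytes were DN cells ground out of the lobes, and each array held RNA of pooled cells that was amplified before labelling. Cells were enriched with magnetic beads against CD4 and CD8, which would leave in place any other cell that carries neither marker. Emigrant arrays are numbered 1 and 2 in each treatment. No label states whether same-group arrays were separate cultures, so each p-value reflects only array-to-array spread, which may be technical.

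As background, the TCR has no signalling tail of its own. Its signal runs through the CD3 epsilon, delta and gamma chains and the CD247 (zeta) chain, whose tyrosine motifs are phosphorylated by the kinase LCK and then bind the kinase ZAP70. ZAP70 phosphorylates the membrane adaptor LAT, and CD28, CD5 and CD2 at the cell surface tune this signal. In DN thymocytes the CD3 chains also carry the signal of the pre-TCR, the receptor built with a rearranged beta chain and the pre-T alpha chain, and gamma-delta T cells use the same chains. NK cells share CD247 and ZAP70 with T cells. The aryl hydrocarbon receptor (AHR), a transcription factor switched on by its ligands, is the receptor for TCDD.

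Promoter sequences are shown for the CD3 chains and Lat, the genes that were lowest together on the same arrays. Cd3g, Cd3d and Cd3e are neighbours on chromosome 9. Cd3g and Cd3d are read in opposite directions from starts 1355 bases apart, and the start of Cd3e lies 27825 bases from that of Cd3d. The stretches are the 250 bases before the start, from RefSeq on build GRCm38.p6: chr9:45009612-45009861 on the minus strand for Cd3e, chr9:44981536-44981785 on the plus strand for Cd3d, chr9:44980432-44980681 on the minus strand for Cd3g, chr1:165788431-165788680 on the plus strand for Cd247 and chr7:126369569-126369818 on the minus strand for Lat. Capitals mark CANNTG, the E-box letters, the only one of 3 searched motifs found in these 5 stretches.
Cd3e: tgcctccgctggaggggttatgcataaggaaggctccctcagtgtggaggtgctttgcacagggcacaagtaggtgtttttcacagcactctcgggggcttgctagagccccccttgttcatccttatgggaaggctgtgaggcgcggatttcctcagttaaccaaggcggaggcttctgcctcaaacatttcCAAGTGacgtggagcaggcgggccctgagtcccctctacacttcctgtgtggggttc
Cd3d: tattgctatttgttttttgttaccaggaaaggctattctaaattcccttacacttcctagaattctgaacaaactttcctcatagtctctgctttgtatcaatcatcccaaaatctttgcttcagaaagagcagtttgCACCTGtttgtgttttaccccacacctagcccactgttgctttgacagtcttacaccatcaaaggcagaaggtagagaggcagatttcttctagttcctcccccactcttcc
Cd3g: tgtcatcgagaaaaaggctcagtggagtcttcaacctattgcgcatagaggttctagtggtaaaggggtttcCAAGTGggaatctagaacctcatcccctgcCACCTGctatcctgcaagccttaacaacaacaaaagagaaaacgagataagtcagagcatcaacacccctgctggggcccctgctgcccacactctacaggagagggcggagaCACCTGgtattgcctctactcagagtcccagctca
Cd247: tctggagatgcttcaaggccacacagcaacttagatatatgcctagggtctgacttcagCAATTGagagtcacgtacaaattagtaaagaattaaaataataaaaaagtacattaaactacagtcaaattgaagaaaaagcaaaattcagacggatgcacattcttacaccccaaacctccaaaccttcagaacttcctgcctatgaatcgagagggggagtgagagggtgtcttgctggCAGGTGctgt
Lat: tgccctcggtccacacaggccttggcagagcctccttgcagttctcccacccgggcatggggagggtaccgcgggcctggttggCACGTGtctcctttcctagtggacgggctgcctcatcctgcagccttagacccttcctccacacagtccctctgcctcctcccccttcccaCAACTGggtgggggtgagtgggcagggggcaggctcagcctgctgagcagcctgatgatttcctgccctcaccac

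The motif search covered both strands for GCGTG (the core letters of AHR response elements), CANNTG and TGTGGT (letters of RUNX sites), and the marked matches do not overlap one another. CANNTG occurred 1 time each in the stretches of Cd3e and Cd3d, 3 times in that of Cd3g, and 2 times each in those of Cd247 and Lat. Over all 32851 promoter stretches of this length, 66.2% held CANNTG, 28.2% held GCGTG and 14.0% held TGTGGT. RefSeq entries were matched for 8 of the 10 genes, with 11 stretches, and GCGTG was found in 2 of the 3 stretches of Zap70. A match of letters is a description of the sequence and not a binding site.

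The 6 arrays had medians between 4.84 and 4.88 log2 units. Probe sets for bacterial transcripts, which show how bright a probe set can be when mouse RNA lacks its target, reached at most 4.32 to 4.92 depending on the array, and a value under that of its own array cannot be told from background. The AHR target Cyp1b1 read 5.90, 8.95 and 10.35 with TCDD (emigrants 1, emigrants 2, thymocytes), against 4.66, 4.72 and 6.73 with dioxane. Over 5 AHR targets the median TCDD difference was 3.50 log2 units in emigrants 2 and 3.79 in thymocytes but 0.25 in emigrants 1. The targets were mixed in emigrants 1: Ahrr read 4.04 with TCDD and 4.45 with dioxane and Tiparp 6.66 with each, while Scin read 7.06 and 5.21. Cyp1a1 read 4.22 and 3.96 there, both under the highest bacterial control. The median of 0.25 in emigrants 1 is the Cyp1a1 difference, so it describes no signal. Of the sorted markers, Cd8b1 was under the highest bacterial control on all 6 arrays (3.53 to 4.36) while Cd4 read 4.93 to 5.19, above that control on all 6, and Cd8a 4.62 to 5.50, above it on 4. The emigrant arrays numbered 1 stood apart: their mean over 12 neutrophil and mast cell genes was 9.64 with TCDD and 8.50 with dioxane, against 5.15 to 6.62 on the other 4 arrays. As a guide to RNA quality, actin probe sets at the 3' end exceeded those at the 5' end by 3.77 with TCDD and 3.06 with dioxane in emigrants 1, 3.36 and 3.01 in emigrants 2, and 4.15 and 3.48 in thymocytes.

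All 4 CD3 chains were read above the highest bacterial control on all 6 arrays. Cd3e, the epsilon chain that pairs with both delta and gamma, read 7.33 with TCDD and 6.99 with dioxane in emigrants 1, 8.00 and 7.68 in emigrants 2, and 8.47 and 8.91 in thymocytes. Cd3d, the delta chain, read 7.61 and 7.48 in emigrants 1, 9.62 and 10.16 in emigrants 2, and 9.03 and 10.07 in thymocytes, again with TCDD before dioxane. Both genes were lowest on the 2 emigrant arrays numbered 1, whatever the treatment. Cd3g, the gamma chain, read 5.97 with TCDD and 6.72 with dioxane in emigrants 1, 9.08 and 8.97 in emigrants 2, and 9.61 and 9.14 in thymocytes. Its range over the arrays, 3.63 log2 units, was the widest of the 9 genes. Cd247, the zeta chain that carries most of the receptor's tyrosine motifs, read 5.35 with TCDD and 5.70 with dioxane in emigrants 1, 7.30 and 7.41 in emigrants 2, and 6.95 and 7.03 in thymocytes. For Cd247 the highest arrays were the emigrants numbered 2. The other 3 probe sets of Cd247 were at background, above the highest bacterial control on 1, 0 and 0 of the 6 arrays, so its values rest on 1 probe set.

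**Figure D1:**
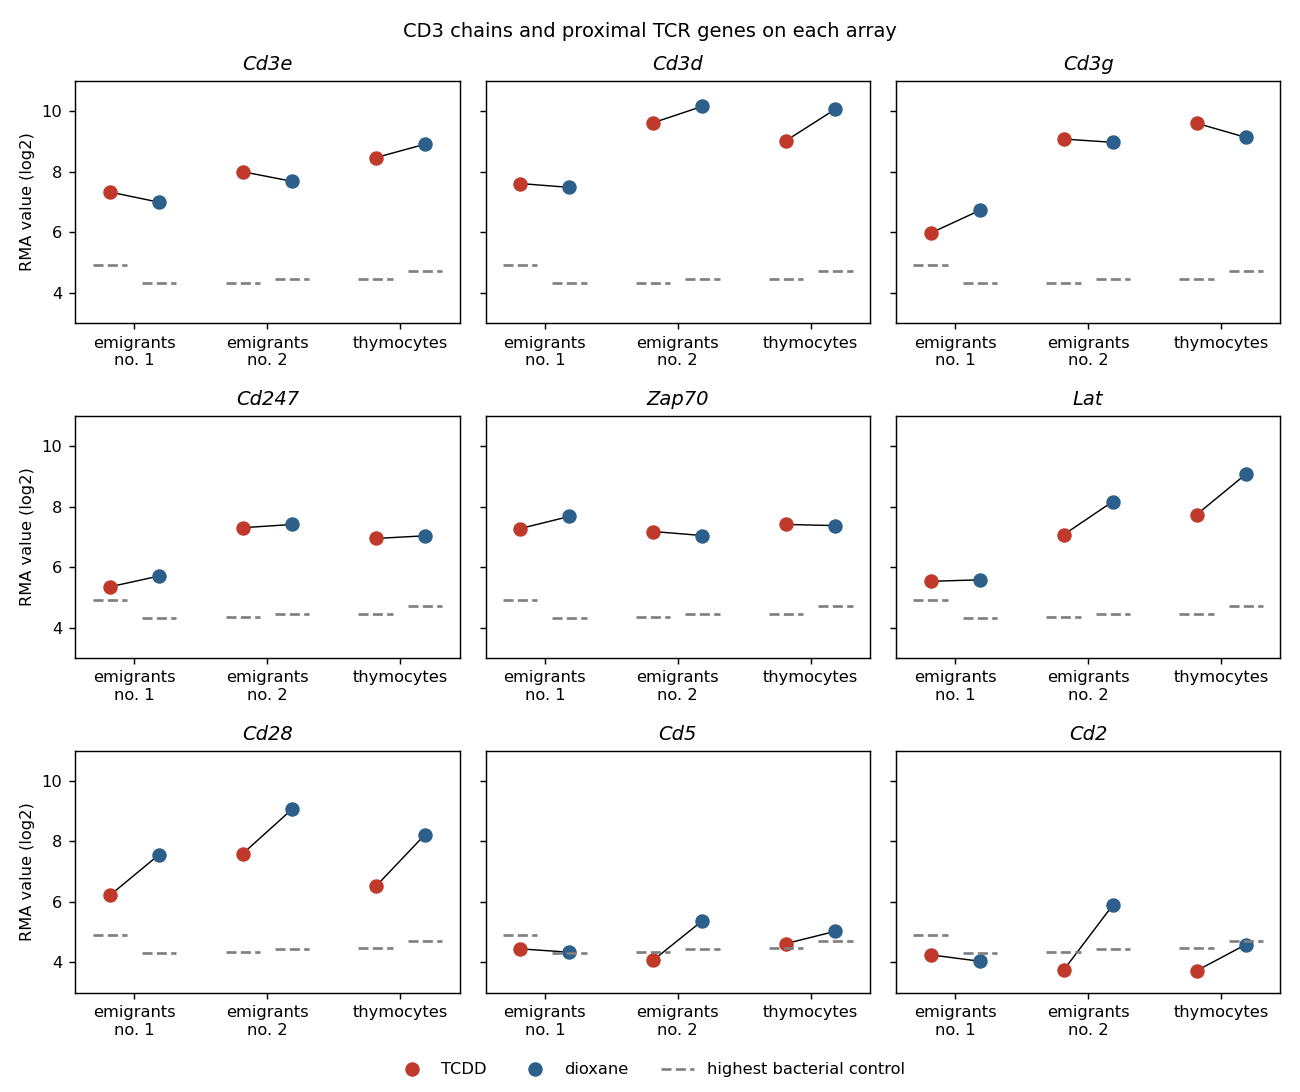
RMA value (log2) of the 9 measured genes on each array, with TCDD (red) left of dioxane (blue) in each pair of arrays and the array's highest bacterial control as a dashed line. Cd28 lies lower with TCDD in all 3 pairs, the CD3 chains lie lowest in emigrants no. 1, and Cd5 and Cd2 lie near the dashed lines.

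The kinase and the adaptor behaved differently across arrays. Zap70, the kinase recruited to phosphorylated CD3 chains, read 7.27 with TCDD and 7.68 with dioxane in emigrants 1, 7.18 and 7.04 in emigrants 2, and 7.41 and 7.37 in thymocytes. Its range of 0.63 log2 units was the narrowest of the 9 genes, and the emigrant arrays numbered 1 were not its lowest. The dimmer probe set of Zap70 did not follow this, with 3.95 and 4.62 in emigrants 1, 5.40 and 4.79 in emigrants 2, and 4.71 and 4.83 in thymocytes (TCDD, then dioxane). Lat, the adaptor that gathers the signalling complex, read 5.53 with TCDD and 5.58 with dioxane in emigrants 1, 7.07 and 8.17 in emigrants 2, and 7.73 and 9.07 in thymocytes. Lat was lower with TCDD where its dioxane level was high, and nearly level within emigrants 1, where it was lowest.

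The surface modulators were read at unequal strength. Cd28, the costimulatory receptor, read 6.22 with TCDD and 7.56 with dioxane in emigrants 1, 7.60 and 9.07 in emigrants 2, and 6.51 and 8.23 in thymocytes. TCDD arrays were the lower ones in each pair, although the TCDD array of emigrants 2 (7.60) slightly exceeded the dioxane array of emigrants 1 (7.56), so the groups overlapped. Cd5, which dampens TCR signals, read 4.45 with TCDD and 4.34 with dioxane in emigrants 1, 4.07 and 5.38 in emigrants 2, and 4.62 and 5.03 in thymocytes. Cd5 was above the highest bacterial control on 4 of the 6 arrays. Cd2, an adhesion receptor that costimulates T cells, read 4.25 and 4.04 in emigrants 1, 3.74 and 5.90 in emigrants 2, and 3.72 and 4.59 in thymocytes (TCDD, then dioxane). Cd2 was above background on 1 array, the dioxane array of emigrants 2, so its differences are bounded by background.

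The first comparison asked how these genes differed with TCDD (3 arrays with TCDD, 3 with dioxane, cell source in the fit). Cd28 was lower by 1.35 log2 units in emigrants 1, 1.47 in emigrants 2 and 1.71 in thymocytes. The CD3 chains had no common direction: Cd3e differed by 0.34, 0.32 and -0.44 in emigrants 1, emigrants 2 and thymocytes, and Cd3g by -0.75, 0.11 and 0.47. Cd3d differed by 0.13, -0.54 and -1.04 in the same order, and Cd247 by -0.36, -0.11 and -0.09. Lat differed by -0.05, -1.10 and -1.34, Cd5 by 0.11, -1.31 and -0.41, and Cd2 by 0.21, -2.15 and -0.87. Zap70 differed by -0.40, 0.13 and 0.04. The gap between the ends of actin was larger with TCDD in all 3 pairs (3.77 against 3.06, 3.36 against 3.01 and 4.15 against 3.48). That of Gapdh was larger with TCDD in the emigrant pairs (5.60 against 4.75 and 4.75 against 4.69) and smaller in thymocytes (5.86 against 6.10). The part of RNA quality in these differences was not tested.

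Counted against 2-fold, 1 of the 9 genes was at least 2-fold lower with TCDD in emigrants 1 (Cd28), where 2.56% of all genes were. In emigrants 2 it was 4 of 9 (Lat, Cd28, Cd5 and Cd2), where 2.16% of all genes were, and in thymocytes 3 of 9 (Cd3d, Lat and Cd28), where 2.79% were. None of the 9 was at least 2-fold higher in any of the 3 pairs, where 3.66%, 3.43% and 2.83% of all genes were. Cd28 alone among the 9 was at least 2-fold lower in all 3 pairs, a pattern shown by 16 of 12393 genes (0.129%). Lat joined Cd28 in being at least 2-fold lower in 2 or more pairs, against 1.14% of all genes. For none of the 9 did the 3 TCDD arrays lie all below the 3 dioxane arrays (4.61% of all genes) or all above them (3.47%). Cd247, Lat and Cd28 were lower in all 3 pairs at any size, against 17.4% of all genes, and none was higher in all 3, against 15.4%. The dimmer probe set of Cd28 differed in the same direction but less, by -0.15, -0.26 and -0.45. It read 4.84 with TCDD and 4.99 with dioxane in emigrants 1, where the TCDD value lay under the highest bacterial control (4.92), 5.58 and 5.84 in emigrants 2, and 5.24 and 5.69 in thymocytes.

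**Figure D2:**
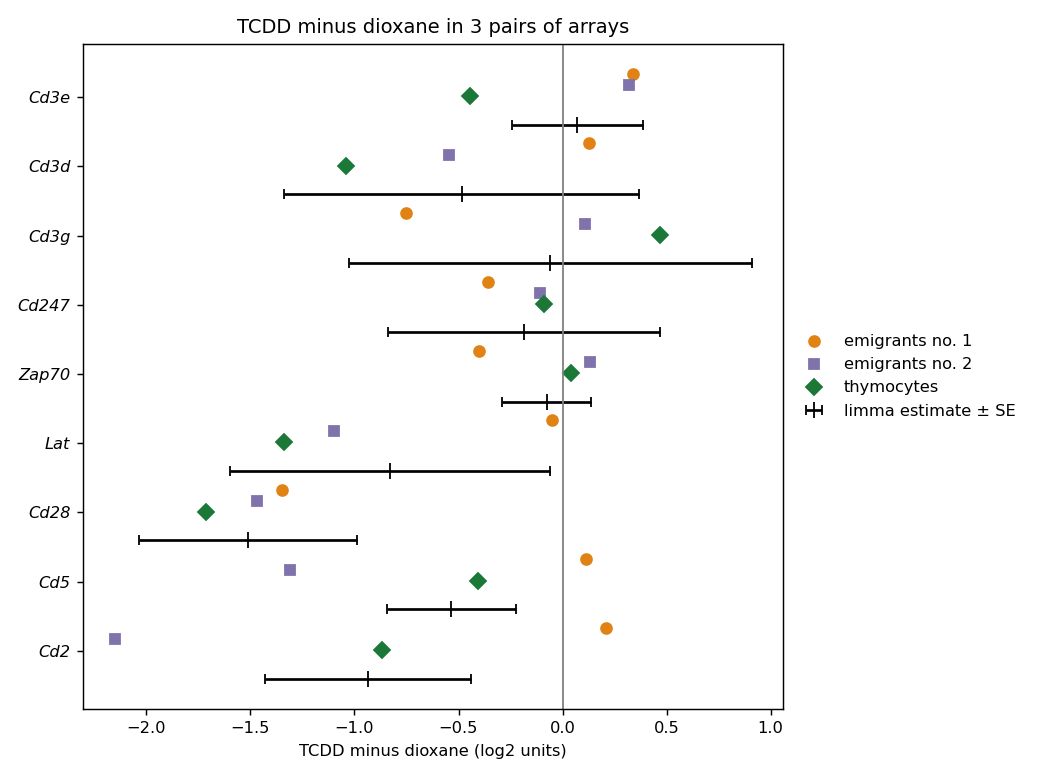
TCDD minus dioxane (log2 units) for each gene in the 3 pairs of arrays, with the limma estimate over all 6 arrays and its SE as a bar. The 3 pairs of Cd28 lie together between -1.71 and -1.35, while those of Cd3g spread over both sides of 0.

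In the fit over all arrays, Cd28 averaged 6.78 ± 0.73 with TCDD and 8.29 ± 0.75 with dioxane (SD, n = 3 each), a difference of -1.51 ± 0.52 log2 units (SE; 95% interval -2.82 to -0.20). It did not pass limma's test after Benjamini-Hochberg adjustment over all genes (adjusted p = 0.888). With the mean of its 2 probe sets in place of the brighter one, the difference was -0.90. Cd3e differed by 0.07 ± 0.32 (95% interval -0.72 to 0.86) and Zap70 by -0.08 ± 0.21 (-0.61 to 0.45). This fit leaves out the array number. In it the intervals of Cd3d (-2.62 to 1.65), Cd3g (-2.48 to 2.36) and Cd247 (-1.82 to 1.45) leave room for differences of more than 2-fold either way. Their SEs were 0.85, 0.97 and 0.65. With the array number added to the fit, the same differences had SEs of 0.25, 0.26 and 0.13, but no label says what the number marks. Without the number, Lat differed by -0.83 ± 0.77, Cd5 by -0.53 ± 0.31 and Cd2 by -0.94 ± 0.49, with adjusted p = 0.999 for each in limma. With each array left out in turn, Lat ranged from -1.64 to -0.16 and Cd2 from -1.46 to -0.40. The median over the 9 genes was -0.49, with 8 of 9 lower, beside a median of -0.02 and 52.8% lower over all genes. Some marker lists of other cells had mostly positive differences in the same fit: 15 of 16 for macrophages and dendritic cells (median 0.67), 11 of 12 for neutrophils and mast cells (0.51) and 10 of 11 for fibroblasts and endothelium (0.53). Others did not: 3 of 8 B-lineage (-0.02), 3 of 7 erythroid (-0.10) and 3 of 9 thymic epithelium genes (-0.05) were higher. In the thymocyte pair the median was 0.03 for macrophages and dendritic cells and -0.08 for neutrophils and mast cells. By pair, the fibroblast and endothelium mean was 4.90 with TCDD and 4.52 with dioxane in emigrants 1, 6.03 and 4.51 in emigrants 2, and 5.83 and 5.93 in thymocytes. None of these genes passed in limma, and the part of such cells in the TCDD differences was not tested. No gene of 12393 passed in limma (0 called, 0%), the smallest adjusted p being 0.483, and 659 genes had an unadjusted p under 0.05. The median of the 9 rested on single arrays: it was -0.09 without the TCDD and -0.81 without the dioxane array of emigrants 1, and -0.78 without the TCDD and -0.16 without the dioxane array of emigrants 2. Without both emigrant arrays numbered 1 it was -0.79, and without both numbered 2 it was -0.22. The Cd28 difference lay between -1.97 and -1.11 when each array was left out in turn. In bulk RNA such as this, fewer cells of a type and less RNA per cell cannot be told apart.

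The second comparison set emigrants against thymocytes (4 arrays against 2, treatment in the fit). Cd3e was lower in emigrants on every array, with 7.50 ± 0.44 in emigrants (SD, n = 4) and 8.69 ± 0.31 in thymocytes (n = 2). The 4 emigrant arrays also lay below both thymocyte arrays for Cd3g, and for these 2 genes alone among the 9; 10.8% of all genes showed this pattern, and none of the 9 lay above both on all 4 arrays (5.46% of all genes). The Cd3e difference was -1.19 ± 0.33 log2 units (95% interval -2.02 to -0.35) and did not pass in limma (adjusted p = 0.548). Lat differed by -1.82 ± 0.82 and Cd3g by -1.68 ± 1.03 (limma adjusted p = 0.743 and 0.879). Cd3d differed by -0.83 ± 0.90, Cd247 by -0.55 ± 0.69 and Zap70 by -0.10 ± 0.23. With each array left out in turn, Cd3d ranged from -1.35 to -0.20 and Cd247 from -0.96 to -0.12. The median over the 9 genes was -0.55, with 7 of 9 lower, beside -0.04 and 56.0% lower over all genes. Here too 0 of 12393 genes (0%) passed in limma, the smallest adjusted p being 0.165, and 880 had an unadjusted p under 0.05.

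These differences depended on which emigrant arrays were used. Against the thymocyte array of the same treatment, emigrants 1 were lower for Cd3g by 3.63 log2 units with TCDD and 2.41 with dioxane. Emigrants 2 were lower for Cd3g by 0.53 with TCDD and 0.16 with dioxane. Lat differed by -2.20 with TCDD and -3.49 with dioxane in emigrants 1, and by -0.67 and -0.90 in emigrants 2. Cd3d differed by -1.42 and -2.59 in emigrants 1 but by 0.59 and 0.09 in emigrants 2, and Cd247 by -1.60 and -1.33 against 0.36 and 0.37. Cd3e kept its direction, with -1.14 and -1.92 in emigrants 1 and -0.47 and -1.23 in emigrants 2. Cd28 differed by -0.29 and -0.66 in emigrants 1 and by 1.08 and 0.84 in emigrants 2. In emigrants 1, 5 of 9 genes were at least 2-fold lower with TCDD, where 4.23% of all genes were, and 5 of 9 with dioxane, where 6.62% were. In emigrants 2 it was 0 of 9 with TCDD (1.95% of all genes) and 1 of 9 with dioxane (2.03%). At least 2-fold higher were 0 of 9 in emigrants 1 with TCDD (4.72% of all genes) and with dioxane (5.17%), and 1 of 9 in emigrants 2 with TCDD (Cd28; 4.67%) and with dioxane (Cd2; 3.63%). Both emigrant numbers were set against the same 2 thymocyte arrays.

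**Figure D3:**
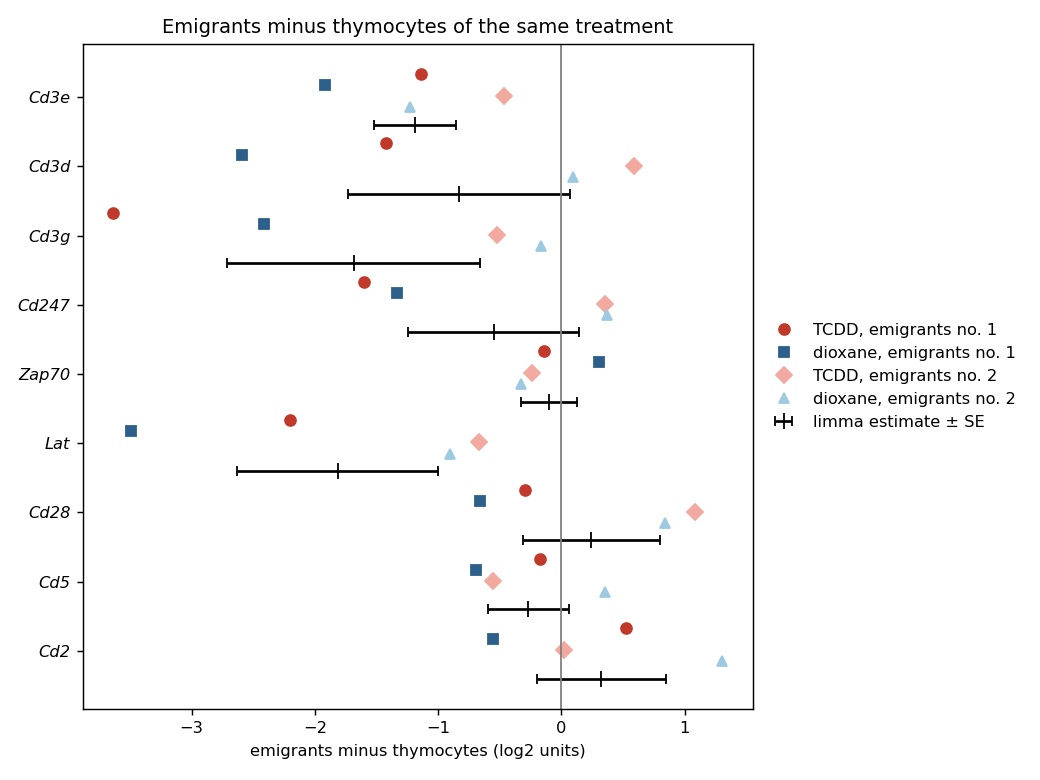
Emigrants minus the thymocyte array of the same treatment (log2 units) for each gene, by emigrant number and treatment, with the limma estimate over all 6 arrays and its SE as a bar. The CD3 chains and Lat lie far to the left in emigrants no. 1 and nearer 0 in emigrants no. 2.

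Without both emigrant arrays numbered 2, limma called 225 of 12393 genes (1.82%). Among these were Cd3g, at -3.02 log2 units (adjusted p = 0.0258 in limma), and Lat, at -2.85 (adjusted p = 0.0328). Without both numbered 1 it called 0 genes, and Cd3d and Cd247 turned to 0.34 and 0.36. Without the dioxane array of emigrants 2 alone, 7 genes were called, none of them among the 9. Each of these fits leaves fewer arrays, and a lone array of a group is assumed to vary like the others.

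Between the emigrant arrays themselves, each of the 4 CD3 chains differed more by array number than by treatment. Emigrants 1 minus emigrants 2 was -0.67 with TCDD and -0.69 with dioxane for Cd3e, -2.01 and -2.68 for Cd3d, -3.11 and -2.25 for Cd3g, and -1.96 and -1.70 for Cd247. For Lat it was -1.54 and -2.59, and for Cd28 -1.38 and -1.50. The brighter probe set of Zap70 ran the other way at 0.10 and 0.63, but its dimmer one differed by -1.45 and -0.17. At least 2-fold lower in emigrants 1 were 5 of 9 genes with TCDD, where 5.87% of all genes were, and 7 of 9 with dioxane, where 7.83% were. None of the 9 was at least 2-fold higher there (3.81% and 4.71% of all genes). Cd3e, Cd3d, Cd3g, Cd247 and Lat read lower on both emigrant arrays numbered 1 than on any of the other 4 arrays, 5 of 9 genes, beside 13.6% of all genes. None of the 9 was higher on both than on the other 4 (16.1% of all genes). The contrast by number was described and not tested. The mean of the 4 CD3 chains was 6.56 with TCDD and 6.72 with dioxane in emigrants 1, 8.50 and 8.56 in emigrants 2, and 8.51 and 8.79 in thymocytes.

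By list mean, macrophage, neutrophil and erythroid markers were highest on the arrays where the CD3 chains were lowest, while NK and innate lymphoid genes were not. Single genes departed from the list means. Cd68 (9.54), Fcgr3 (9.13) and Apoe (9.37) read highest in emigrants 2 with TCDD, and Cpa3 (8.14) in emigrants 2 with dioxane. The mean of 16 macrophage and dendritic cell genes was 9.05 with TCDD and 8.62 with dioxane in emigrants 1, 8.43 and 7.04 in emigrants 2, and 6.05 and 5.74 in thymocytes. That of 7 erythroid genes was 6.41 and 6.42 in emigrants 1, against 4.52 to 4.70 on the other arrays, and the globin genes Hba-a1 (4.08 to 4.53) and Hbb-bh1 (2.98 to 3.76) stayed near background throughout. Mpo, the peroxidase of granulocyte precursors, read 10.06 and 9.83 in emigrants 1 and 4.72 to 5.16 elsewhere. All 12 neutrophil and mast cell genes and 15 of 16 macrophage and dendritic cell genes were above the highest bacterial control on each of the 4 emigrant arrays. In thymocytes it was 11 of 12 with TCDD and 10 of 12 with dioxane, and 13 of 16 with each. Of the T-cell markers besides the 9 genes, the 3 measured were low in emigrants 1 too. Thy1 read 4.90 and 5.69 there (TCDD, then dioxane), against 8.60 to 9.70 elsewhere, and Bcl11b and Gata3 read 3.87 to 4.41 in emigrants 1. The part of these other cells in the CD3 values was not tested. The mean of 8 B-lineage markers was 4.32 to 4.49. Cd79a (3.65 to 4.35) and Ebf1 (3.02 to 3.45) were under the highest bacterial control on all 6 arrays. Ms4a1 (4.59 to 5.53) was above it on all 6, and Cd79b and Blnk on 5 each. Of the thymic epithelium markers, Foxn1 (3.70 to 4.27), Krt14 and Krt18 were under that control on all 6 arrays, while Epcam and Aire were above it on all 6. Krt5, Krt8 and Cldn4 were above it on 5 each and Ccl25 on 3. Epcam read 7.35 with TCDD and 6.67 with dioxane in thymocytes, and 4.89 to 5.69 in emigrants.

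**Figure D4:**
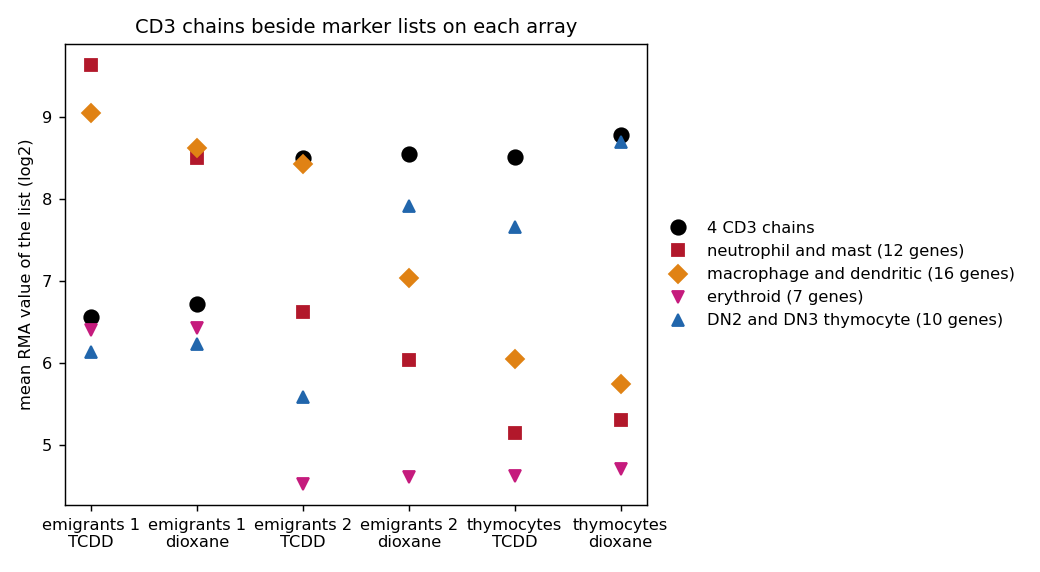
Mean RMA value (log2) of the 4 CD3 chains and of 4 marker lists on each array. The CD3 mean lies at 6.56 and 6.72 in emigrants 1 and at 8.50 to 8.79 elsewhere, and the neutrophil and mast cell mean lies at 9.64 and 8.50 in emigrants 1 and at 5.15 to 6.62 elsewhere.

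The mean of genes of the DN2 and DN3 stages differed more with TCDD than the CD3 mean in emigrants 2 and in thymocytes, a description without a test. In emigrants 1 the mean of 10 DN2 and DN3 genes was 6.14 with TCDD and 6.24 with dioxane, beside 6.56 and 6.72 for the CD3 chains. In emigrants 2 it was 5.59 with TCDD and 7.92 with dioxane, while the CD3 mean was 8.50 and 8.56. In thymocytes it was 7.66 and 8.70, beside 8.51 and 8.79 for the CD3 chains. Both means joined unlike genes there. Dntt (9.10 with TCDD and 12.36 with dioxane) and Cd24a (8.90 and 10.86) were lower with TCDD, but Dtx1 (7.77 and 7.29) and Hes1 (6.55 and 6.18) were higher. Among the CD3 chains, Cd3d differed by -1.04, Cd3e by -0.44, Cd247 by -0.09 and Cd3g by 0.47. Rag1, needed for receptor gene rearrangement, read 4.03 with TCDD and 3.72 with dioxane in emigrants 1, both under the highest bacterial control, 3.61 and 9.99 in emigrants 2, and 7.00 and 9.70 in thymocytes. Ptcra, the pre-T alpha chain that CD3 serves before the TCR alpha chain is made, read 5.00 with TCDD and 5.56 with dioxane in emigrants 1, 4.87 and 7.16 in emigrants 2, and 9.83 and 9.86 in thymocytes. Over 5 gamma-delta T-cell genes the mean was 5.27 and 5.21 in emigrants 1, 6.50 and 6.20 in emigrants 2 and 6.13 and 5.66 in thymocytes, with TCDD first. NK and innate lymphoid genes, 12 in number, averaged 6.84 and 6.76 in emigrants 1, 7.26 and 7.29 in emigrants 2 and 7.49 and 6.26 in thymocytes. This list was mixed in emigrants 1. Fcer1g read 8.93 and 8.98 there, its highest values, while Gzma read 9.37 and 8.68, against 9.13 to 12.20 elsewhere. NK cells can also carry CD247 and ZAP70, and their part in the values of Cd247 and Zap70 was not tested.

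The TCDD difference was then compared between the cell sources, as the difference in emigrants minus that in thymocytes. For Cd3e it was 0.77 ± 0.67 log2 units, for Cd28 0.30 ± 1.22, for Lat 0.76 ± 1.76 and for Cd3g -0.79 ± 2.22 (SE). None passed (limma adjusted p = 1.00 for all 9 genes), and the 95% interval for Cd28 ran from -2.92 to 3.52. Limma called 0 of 12393 genes (0%), with 97 at an unadjusted p under 0.05. The intervals of Lat (-3.87 to 5.39) and Cd3g (-6.63 to 5.05) were wider still.

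Other genes of the pathway were split nearly evenly in direction. Of 85 further genes listed by role, 66 were measured. With TCDD, 32 were higher and 34 lower, with a median of -0.03, and limma called 0. The highest were Egr2, a transcription factor induced by TCR signals (1.29 ± 0.29, adjusted p = 0.811 in limma), Icos, a costimulatory receptor related to CD28 (0.65 ± 0.89), and Cbl, a ubiquitin ligase that limits TCR signals (0.61 ± 0.17). The lowest were Nck2, an adaptor that binds CD3 epsilon (-1.13 ± 0.63), Ptcra (-0.96 ± 0.50) and Il2ra, the interleukin-2 receptor alpha chain (-0.78 ± 0.74). Icos read 5.53 with TCDD and 6.74 with dioxane in emigrants 1, 8.96 and 7.20 in emigrants 2, and 8.60 and 7.18 in thymocytes, so that Icos and Cd28 ran in opposite directions in 2 of the 3 pairs.

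By role, 13 kinases and their regulators had a median of 0.07 with TCDD (10 higher, 3 lower) and 28 adaptors and effectors a median of -0.14 (9 higher, 19 lower). The 12 costimulatory and adhesion partners had a median of 0.05 (7 higher, 5 lower). For the 5 receptor chains and coreceptors (0 higher, 5 lower) the median of -0.28 is the value of Cd8b1, which was under the highest bacterial control on all 6 arrays, so it describes no signal. The 8 genes induced by TCR signals had a median of 0.11 (6 higher, 2 lower). Of these 8 genes, Il2 and Nr4a2 were each above the highest bacterial control on only 2 of the 6 arrays. Nr4a1, the gene most used to read TCR signal strength, read 7.28 with TCDD and 6.91 with dioxane in emigrants 1, 6.71 and 6.60 in emigrants 2, and 7.21 and 6.80 in thymocytes. None of these genes was called by limma.

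Between emigrants and thymocytes, 37 of the 66 genes were higher and 29 lower, with a median of 0.02 and 0 called. The lowest were Ptcra (-4.20 ± 0.53, adjusted p = 0.320 in limma), Il2ra (-3.07 ± 0.78) and Ctla4, an inhibitory receptor that shares ligands with CD28 (-1.59 ± 1.02). The highest were Cd86, a CD28 ligand of myeloid cells (1.43 ± 0.73), Nck1 (1.04 ± 0.24) and Nfatc3, a transcription factor activated by calcium (0.63 ± 0.60). Cd86 read 7.00 and 6.44 in emigrants 1 (TCDD, then dioxane), the arrays with the highest macrophage means, and 4.28 to 5.22 elsewhere. Ctla4 and Nfatc3 also depended on the array number. In the same order, Ctla4 read 4.61 and 4.79 in emigrants 1, 7.45 and 7.06 in emigrants 2, and 6.80 and 8.34 in thymocytes. Nfatc3 read 6.16 and 6.59 in emigrants 1, 7.99 and 7.82 in emigrants 2, and 6.20 and 6.82 in thymocytes.

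**Figure D5:**
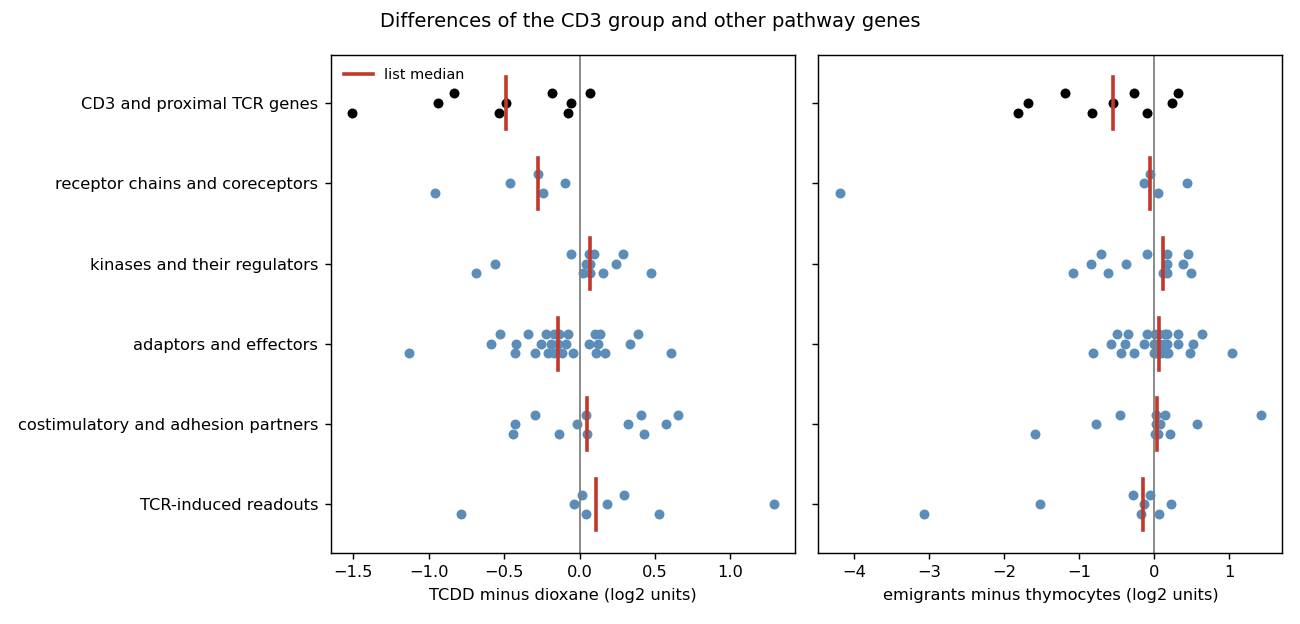
TCDD minus dioxane (left) and emigrants minus thymocytes (right), both in log2 units from limma, for the 9 CD3 and proximal TCR genes (black) and 66 other pathway genes (blue) by role, with list medians in red. The medians of the 9 genes are -0.49 and -0.55, and those of the other lists lie between -0.28 and 0.12.

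The genes whose pattern over the 6 arrays was most like the mean of the 4 CD3 chains were ranked by Pearson's r among 739 genes that varied by at least 2 log2 units and exceeded 7 on at least 1 array. They were Thy1, a surface glycoprotein of T cells (r = 0.992), Pfn2, an actin-binding profilin (0.987), Akr1c13, an aldo-keto reductase (0.982), Trgv1, a variable segment of the TCR gamma chain (0.979), and Gbp6, a guanylate-binding protein (0.967). Trgv1 read 7.93 with TCDD and 8.50 with dioxane in emigrants 1, 10.41 and 10.27 in emigrants 2, and 9.85 and 10.43 in thymocytes. Gbp6 read 5.97 and 6.61 in emigrants 1 and 8.98 to 9.67 elsewhere. All 5 were lowest on the emigrant arrays numbered 1, and these r values describe 6 arrays that fall into 2 such sets, so they carry no test.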

How the data were processed

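Each sample is RNA of pooled DN cells on 1 Affymetrix array. The deposited values are on the log2 scale and were made by the authors with RMA, per the submitters' processing notes; affy, a Bioconductor package, is named in the design text, without a version. RMA corrects background and normalises across arrays, gives no detection calls and understates differences of dim genes. Values were used as deposited. Of 22690 probe sets, 64 controls, 691 with several symbols and 1555 without a symbol were left out, which left 20380 probe sets and 12393 genes. Differences were tested with lmFit and eBayes of limma 3.58.1 (R 4.3.3), with Benjamini-Hochberg adjustment over all genes and calls at an adjusted p under 0.05. The code was tested on simulated data. The members and all lists were chosen with earlier results of these data known. Named besides the members were, per comparison, the 3 highest and 3 lowest pathway genes, cell markers and the 5 genes most like the CD3 mean. Motifs were counted with Python 3.11.15. The number of arrays limits the precision. Alternatives covered normalisation, a filter on dim genes, the prior, the probe set rule, the threshold, covariates, the array number and the omission of arrays.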

Additional observations from a re-analysis of the deposited data

Results flagged for a closer look

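Cd3e, the CD3 epsilon chain, differed with TCDD in opposite directions between the cell sources: by 0.34 log2 units in emigrants 1 and 0.32 in emigrants 2, but by -0.44 in thymocytes. The emigrant difference minus the thymocyte difference was 0.77 ± 0.67 (SE; 95% interval -0.99 to 2.53) and did not pass in limma (adjusted p = 1.00). There was 1 thymocyte array per treatment, so the thymocyte difference has no replicate.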

How the results depend on the processing

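The labels give emigrant arrays the numbers 1 and 2 in both treatments, but nothing says what a number marks; deviations of same-numbered arrays from their group means correlated at r = 0.560 over 12393 genes. With the number as a replicate block, 0 genes were called for TCDD, and Cd28 was at -1.51 ± 0.14 (limma adjusted p = 0.282). For emigrants against thymocytes the replicate block, which leaves emigrants 1 against thymocytes, called 160 genes (median of the 9 -1.46) with Zap70 at 0.084, Cd28 at -0.48 and Cd2 at -0.012; Cd3g, Cd247 and Lat passed (adjusted p = 0.0403, 0.0409 and 0.0497). The fit without both emigrant arrays numbered 2 gave the same differences (median -1.46, Zap70 0.084, Cd28 -0.48 and Cd2 -0.012) and 225 called genes. Without both numbered 1, Cd3d turned to 0.34 and Cd247 to 0.36 in that comparison, and for TCDD the median was -0.79, with Cd3e at -0.063, Cd3g at 0.29 and Zap70 at 0.086. Without both numbered 2 the TCDD median was -0.22 and Cd3e -0.053. When the dimmer genes, Cd5 and Cd2 included, were left out, the TCDD median was -0.18 and the median difference of the TCDD effects between sources was 0.30. Leaving out each array in turn gave TCDD medians of -0.81 to -0.087 (Cd3e -0.20 to 0.33, Cd3d -1.33 to 0.20, Cd3g -0.87 to 0.91, Cd247 -0.73 to 0.39, Zap70 -0.24 to 0.12). For emigrants against thymocytes it gave 0 to 7 called genes, medians of -0.96 to -0.20, Zap70 at -0.25 to 0.024, Cd28 at -0.075 to 0.59 and Cd2 at -0.080 to 0.72. For the difference of the TCDD effects it gave medians of -0.53 to 0.83, Cd3d -0.51 to 2.17, Cd3g -2.35 to 0.76, Cd247 -1.12 to 0.83, Zap70 -0.49 to 0.14, Lat -0.53 to 2.06, Cd28 -0.45 to 1.06, Cd5 -0.71 to 0.33 and Cd2 -1.03 to 0.82. The cause of these shifts was not tested. Other normalisations, an intensity trend, single or averaged probe sets, a threshold of 0.1 and no covariate turned no direction of the 9 genes and called 0 genes, but averaging probe sets moved the TCDD difference of Cd28 to -0.90 and of Cd247 to -0.035, and for emigrants against thymocytes the median to -0.27, Cd247 to -0.073 and Cd28 to 0.044. In the emigrant arrays alone the TCDD median was -0.32. Signal over background limits Cd5 and Cd2 most.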
